A study of Mus musculus with 2 samples.

Results

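RNA polymerase II (Pol II), the Mediator complex and the TATA-binding protein complex TFIID form the machinery that starts transcription of protein-coding genes. Their genes were picked out by symbol: numbered Med and Taf genes, Polr2a to Polr2l, and Tbp, Cdk8, Cdk19, Ccnc, Gtf2b, Gtf2a1, Gtf2e1 and Gtf2h1. The rule found 70 of the 20373 genes listed, and 69 of them reached 1 count per 1000000 (CPM) in at least 1 library. Taf7l did not, and it is given by its reads only.

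TFIID recognises the core promoter through Tbp and its associated factors (TAFs), and general factors such as TFIIA, TFIIB, TFIIE and TFIIH then bring in and open the DNA for Pol II. Mediator connects activators bound at enhancers with this assembly through its head, middle and tail, and a detachable kinase module (Cdk8 or Cdk19 with cyclin C, Med12 and Med13) hinders its contact with Pol II. A polymerase that has started often pauses shortly downstream, the step to which the series relates its transcriptomes.

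The RNA came from mouse cortex at embryonic day 15.5, from embryos with a Nestin-GFP and a DCX-mRFP reporter allele, which both populations carry. Neurons were sorted as cells with both colours and neural progenitor cells (NPCs) as green cells. Each population gave 1 library, with 23312054 reads for neurons and 26346226 for NPCs, and the number of embryos pooled is not given in the sources used here. A reporter protein can outlast the transcription of its gene, so such gates need not separate the cell types completely. The column headings of the deposited tables begin with the letter R for the neuron library and D for the NPC library, letters that the sources used here do not explain. Which sorted gate each library came from therefore rests on the labels, and so does every direction between neurons and NPCs below.

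Marker genes were checked against the labels. Nes was at 189.5 CPM in neurons and 408.5 in NPCs, and Dcx at 3294 CPM in neurons and 2522 in NPCs. By CPM, Dcx ranked 7 among all genes in neurons and 5 in NPCs, so this transcript of the neuronal reporter gene was abundant in both libraries. All 9 radial glia markers were at least 2-fold lower in neurons (median log2 ratio of neuron to NPC -1.50), as were all 8 mitosis markers (-1.51), and all 8 neuronal markers were higher in neurons (median 0.88). The 8 neuronal markers summed to 8764 CPM in neurons and 5796 in NPCs, 1.51-fold apart, so neuronal transcripts beyond Dcx were abundant in both libraries. Markers of other cell types also differed. The summed level was 9.35 CPM in neurons and 201.8 in NPCs for 6 pericyte genes, 2.15 and 17.7 CPM in these libraries for 7 endothelial genes, and 28.8 and 75.9 CPM for 6 oligodendrocyte lineage genes. It was 122.6 CPM in neurons and 29.1 in NPCs for 8 microglial genes, and 466.6 and 111.7 CPM for 5 Cajal-Retzius genes. The 4 intermediate progenitor genes were all at least 2-fold lower in neurons (median log2 ratio -1.54). They summed to 601.1 CPM in neurons and 1744 in NPCs. The remaining lists, 6 interneuron and 5 red blood cell genes, summed to 212.8 and 140.6 CPM in neurons and to 296.7 and 151.2 CPM in NPCs. The red blood cell genes Hba-a1 and Hba-a2 each had 1296 reads in neurons and 1638 in NPCs, so the same reads may be counted for both in that sum. None of these markers was at 0 reads in either library. Their part in the differences and similarities below was not tested. In bulk libraries fewer cells of a type and less RNA per cell cannot be told apart, and with 1 library per group no difference below has a replicate check or a p-value. Intervals beside folds are exact 95% counting intervals and cover counting error only.

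Transcripts of the initiation machinery were at similar levels in both libraries. Of the 69 genes, 61 lay within 1.25-fold with 1 CPM added to both values (88.4%), against 58.2% of the 12693 genes that reached 1 CPM. On that scale the log2 of neuron over NPC had a median of -0.017 for the 69 genes and -0.0049 for all genes. Their interquartile range was 0.21 log2 units and that of all genes 0.50. Restricted to genes at 10 CPM or more, the ranges were 0.21 for 66 members and 0.44 for 9950 genes. On the same scale 0 members were at least 1.5-fold higher in neurons (background 10.6%) and 2 at least 1.5-fold lower (background 13.1%), Med12l and Taf4b. At least 2-fold differences were found for 0 members in either direction (background 3.85% higher and 6.73% lower in neurons). By any amount 31 members were higher in neurons (background 49.3%) and 38 lower (background 50.7%). Levels ran from 0.352 CPM (Taf7l) to 348.0 CPM (Med13) in neurons and from 0.0369 CPM (Taf7l) to 431.3 CPM (Polr2a) in NPCs.

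**Figure D1:**
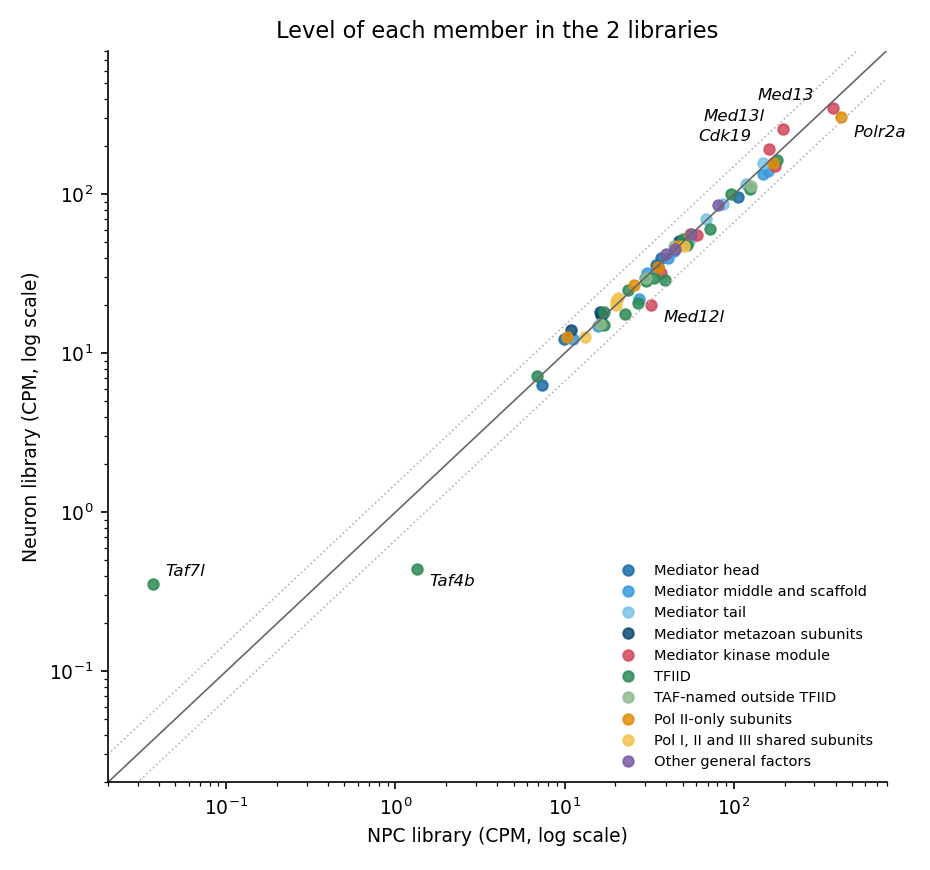
CPM of each of the 70 genes in the neuron library (vertical axis) and the NPC library (horizontal axis), both on log scales, coloured by role. The solid line marks equal levels and the dotted lines a 1.5-fold difference without the added 1 CPM; most points lie close to the solid line, while Taf4b and Taf7l rest on few reads.

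Small differences were resolved by the depth. The counting interval of the fold excluded equality for 28 of the 69 genes, 7 higher in neurons (background 33.6% of all genes) and 21 lower (background 34.6%). With scaling by total reads, which lowers every neuron value relative to NPCs, these counts were 3 and 27. Polr2i, Med11, Med24 and Gtf2a1 were then no longer beyond counting error, and Polr2e, Med16, Med17, Med23, Taf3 and Taf12 became lower in neurons beyond it. With upper quartile scaling Gtf2a1 was no longer called and Med17 became lower, and with TMM scaling no call of the 69 changed. Among the roles, TFIID held 9 of the 21, the Mediator kinase module 5 and the remaining Mediator subunits 4. The 3 not in these groups were Polr2a, Polr2b and Taf15.

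Promoter sequences are shown for the 3 genes on which the results below turn: Polr2a, whose transcript had the largest difference in CPM, and Med12l and Med13l, kinase module genes that differed in opposite directions. Each line gives the 250 bases before the RefSeq start site on the gene's strand, 5′ to 3′, from the GRCm38.p6 table, and the capitals mark the TATA box letters (TATAAA) and the GC box letters (GGGCGG) on either strand. Letters for the CCAAT box and for ETS factors were searched too and are absent from these windows. The windows lie at chr11:69758634-69758883 (minus strand) for Polr2a, chr3:59006728-59006977 (plus strand) for Med12l and chr5:118560469-118560718 (plus strand) for Med13l.
Polr2a: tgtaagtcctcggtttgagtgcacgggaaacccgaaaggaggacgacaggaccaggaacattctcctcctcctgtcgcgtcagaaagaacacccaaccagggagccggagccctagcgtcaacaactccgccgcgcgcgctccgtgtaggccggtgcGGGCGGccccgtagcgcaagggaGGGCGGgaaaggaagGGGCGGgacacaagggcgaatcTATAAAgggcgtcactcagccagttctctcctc
Med12l: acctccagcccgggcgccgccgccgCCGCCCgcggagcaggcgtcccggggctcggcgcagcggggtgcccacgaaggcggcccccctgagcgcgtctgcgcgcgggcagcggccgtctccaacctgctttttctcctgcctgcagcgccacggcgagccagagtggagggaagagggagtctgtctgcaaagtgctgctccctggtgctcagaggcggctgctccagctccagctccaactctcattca
Med13l: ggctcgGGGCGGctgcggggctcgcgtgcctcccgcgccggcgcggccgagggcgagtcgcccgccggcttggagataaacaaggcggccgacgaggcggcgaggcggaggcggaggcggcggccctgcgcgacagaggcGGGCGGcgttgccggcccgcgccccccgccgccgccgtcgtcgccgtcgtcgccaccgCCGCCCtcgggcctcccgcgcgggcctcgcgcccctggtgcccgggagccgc
The Polr2a window held a TATAAA whose first base lies 33 bases before the start, near the usual place of a TATA box, and 3 matches to GGGCGG, the GC box bound by Sp1-type factors. The Med12l window held 1 GGGCGG and that of Med13l 3, with no TATAAA in either. CG dinucleotides numbered 23, 26 and 51 in the order printed.

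Promoter windows were listed for 59 of the 70 genes. The first listed was used for each gene, and 12 members had more than 1. The 59 include Taf7l, which is below 1 CPM and holds TATAAA on both strands. Within 250 bases, TATAAA on either strand was found in 10 of the 59 (16.9%), against 5.81% of the windows of 9103 genes at 1 CPM or more and 13% of all 27025. Limited to the gene's strand and to a first base 24 to 40 bases before the start, it was found in 2 members, Polr2a and Taf13 (3.39%, against 0.89% of genes at 1 CPM or more). The GC box letters were found in 67.8% of members and 60.9% of genes at 1 CPM or more. CCAAT was found in 39% of members and 37% of those genes. CCGGAAG, letters bound by ETS factors, was found in 20.3% of members and 13.6% of those genes. All were searched on both strands. The median window held 19 CG dinucleotides in members, 16 in genes at 1 CPM or more and 6 in all windows. No overlap between motifs was removed. These matches are letters in a window and not measured binding.

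Polr2a, which encodes the catalytic subunit with the repeated C-terminal tail whose phosphorylation accompanies initiation, pausing and elongation, stood apart from the other subunits of its enzyme. It had 7020 reads in neurons and 11634 in NPCs, or 308.1 and 431.3 CPM. It was 1.40-fold lower in neurons (1.36 to 1.44), and its log2 ratio of -0.48 was at percentile 15.8 of all genes at 1 CPM or more, so differences of this size were common. Polr2b, the other large subunit, which closes the active site with Polr2a, was at 158.5 CPM in neurons and 169.7 in NPCs (1.07-fold lower, 1.02 to 1.12).

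Of the smaller Pol II-only subunits, Polr2i alone differed beyond counting error, and with total read scaling it did not (1.18-fold higher, 0.997 to 1.39). Polr2c and Polr2j, which pair as the platform on which the enzyme assembles, were at 56.6 and 26.7 CPM in neurons and at 55.2 and 25.6 CPM in NPCs. Polr2d and Polr2g, the stalk that holds emerging RNA, were at 47.6 and 34.9 CPM in neurons and at 47.6 and 35.7 CPM in NPCs. The intervals of these 4 genes spanned equality. Polr2i, a small subunit beside the incoming DNA, was at 12.7 CPM in neurons and 10.3 in NPCs (1.24-fold higher, 1.04 to 1.46), but 34.1% of its exonic bases are also exon of Tbcb on the opposite strand, which was itself at 72.2 CPM in neurons and 51.0 in NPCs. The Polr2a reads divided by the reads of the 6 other Pol II-only genes gave 0.914 in neurons and 1.25 in NPCs, 1.37 times lower in neurons (1.31 to 1.43), a ratio that scaling between libraries cannot change. Against Polr2b alone the reads ratio was 1.94 in neurons and 2.54 in NPCs (1.31 times lower, 1.24 to 1.38).

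The 5 subunits that Pol II shares with polymerases I and III did not differ beyond counting error, but with total read scaling Polr2e was 1.12-fold lower in neurons (1.04 to 1.22). As deposited, Polr2e was at 47.4 CPM in neurons and 50.8 in NPCs, and its interval of 0.990 to 1.16 around a 1.07-fold lower level was the nearest to excluding equality. Polr2f was at 22.3 CPM in neurons and 20.7 in NPCs, and Polr2l at 21.4 and 20.1. Polr2h (20.0 CPM in neurons and 20.2 in NPCs) and Polr2k (12.7 and 13.2) were 1.01-fold and 1.04-fold lower in neurons. Whether reads of Polr2k or of other members are shared with pseudogenes was not tested. Summed over all 12 subunits the level was 768.8 CPM in neurons and 900.6 in NPCs. Polr2a made up most of that gap, since the other Pol II genes had a log2 ratio between -0.10 and 0.28.

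Per kilobase of annotated transcript, the 12 subunits spanned 13.0 to 46.9 CPM per kilobase in neurons and 12.2 to 64.0 in NPCs. Polr2a was highest in NPCs at 64.0, above Polr2d at 46.9 and Polr2e at 44.3. In neurons Polr2d (46.9) and Polr2a (45.7) were highest, a gap for which no spread over samples is available. Polr2l, Polr2i and Polr2c were the lowest in both libraries, between 12.2 and 15.5 CPM per kilobase. Exons of other genes also overlap 27.7% of the exonic bases of Polr2f, 23.8% of Med20, 18.2% of Polr2c, 15.9% of Polr2j, 14.8% of Taf1c and 11.9% of Med19, and reads there may be mixed. With coding length the order was another. Polr2d was then highest in both libraries, at 111.7 CPM per coding kilobase, followed by Polr2l at 106.4 in neurons and 99.97 in NPCs. Polr2a then ranked 7 of 12 in neurons (52.1) and 5 of 12 in NPCs (73.0), and Polr2i was lowest in both (33.9 in neurons and 27.5 in NPCs).

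**Figure D2:**
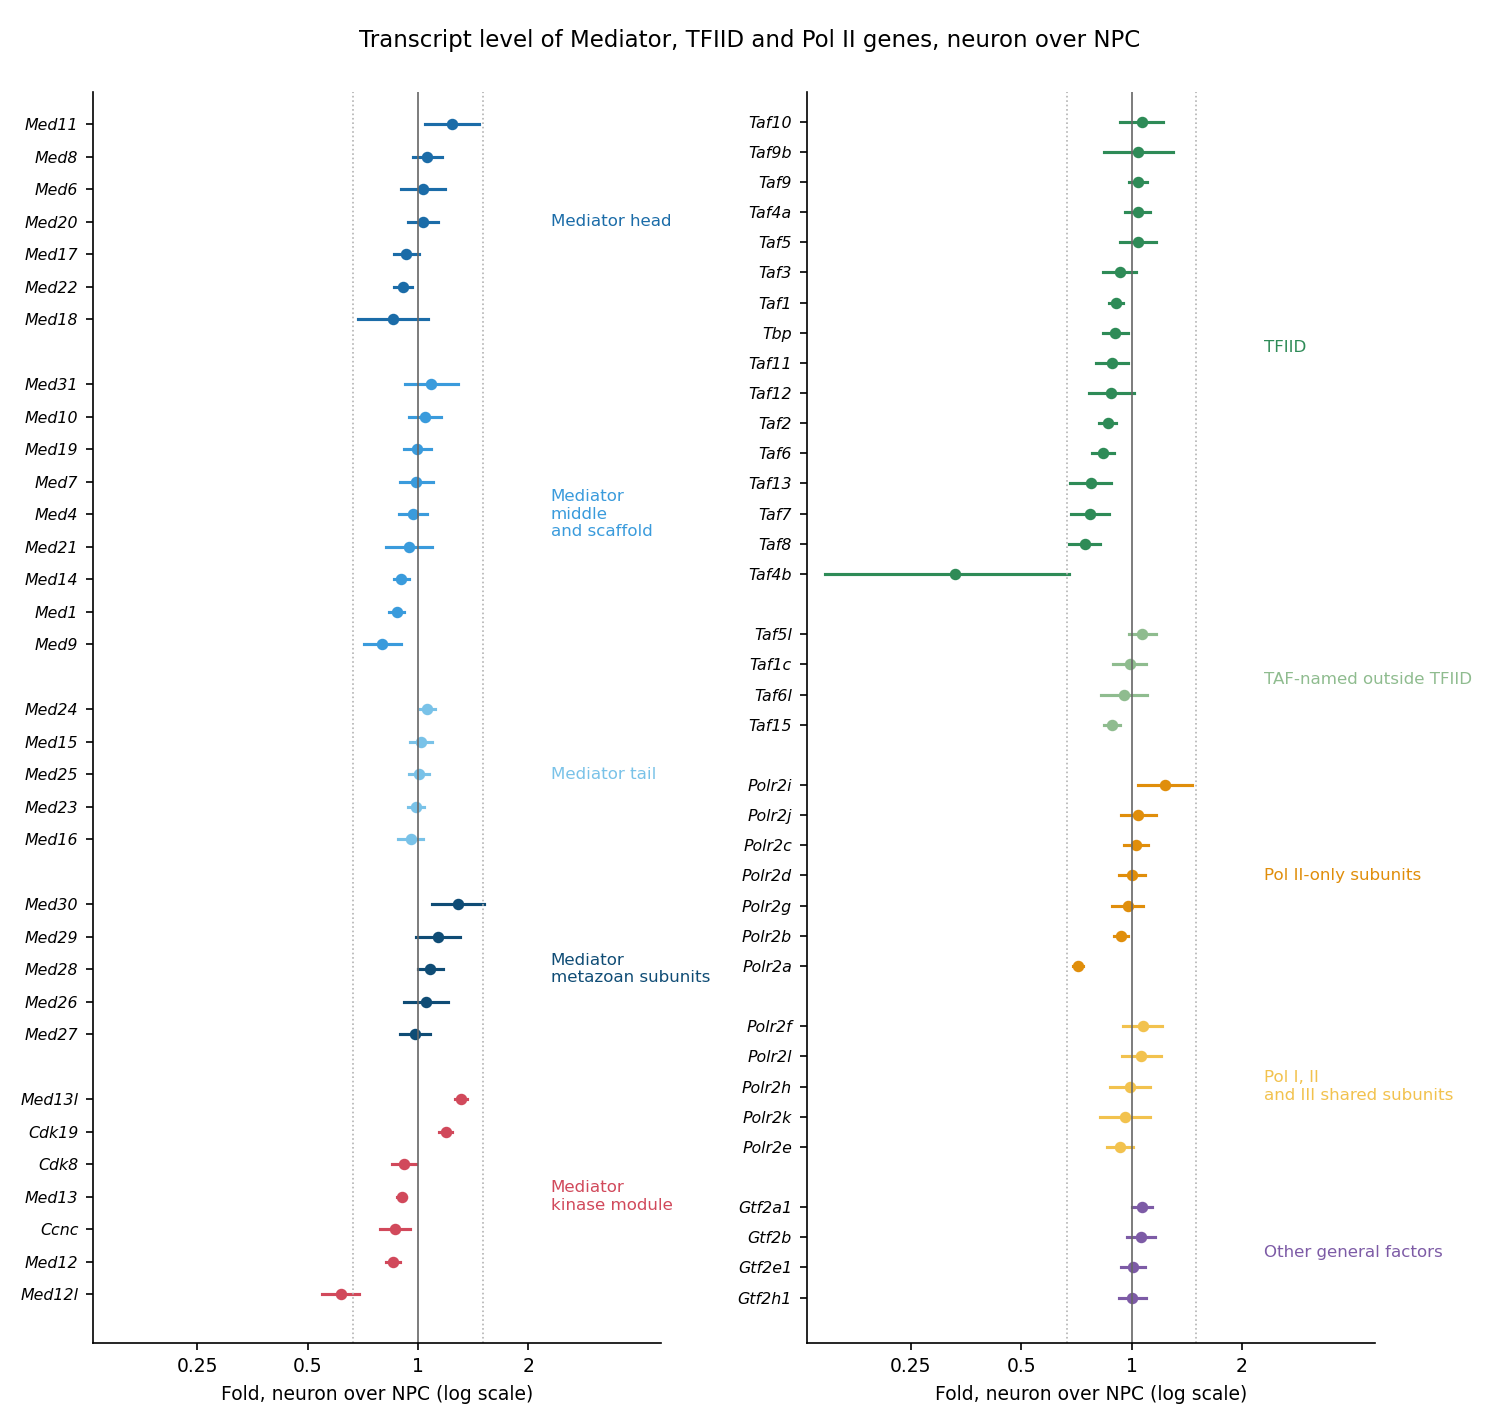
Fold of neuron over NPC (horizontal axis, log scale, no added value) for the 69 genes at 1 CPM or more, grouped by role; points are the ratio of CPM and bars the exact 95% counting interval. Solid and dotted vertical lines mark equality and 1.5-fold; Polr2a lies to the left of the other polymerase genes, and the kinase module spans both sides.

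TFIID transcripts were lower in neurons more often than higher. Of 16 TFIID genes at 1 CPM or more, 9 were lower in neurons beyond counting error and 0 higher, against 34.6% and 33.6% of all genes, and the median log2 ratio was -0.16. With total reads used for scaling the counts were 11 and 0, and with TMM or upper quartile scaling 9 and 0. The log2 ratios ran from -0.70 (Taf4b) to 0.09 (Taf10), and 12 of the 16 lay within 1.25-fold, against 58.2% of all genes. Progenitor, mitosis, pericyte and endothelial markers were lower in the same library, as given above, and their part in this was not tested.

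Tbp, which bends the DNA at the promoter, had 1096 reads in neurons and 1437 in NPCs. At 48.1 CPM in neurons and 53.3 in NPCs it was 1.11-fold lower (1.02 to 1.20), and 17.4% of its exonic bases overlap exons of Pdcd2 on the opposite strand. Taf1, the largest subunit and a scaffold of the complex, was at 163.5 CPM in neurons and 180.3 in NPCs (1.10-fold lower, 1.06 to 1.15). Taf2, which contacts DNA at the initiator, was at 107.9 CPM in neurons and 125.5 in NPCs (1.16-fold lower, 1.10 to 1.23). These abundant members differed from equality by small amounts that their read numbers resolved.

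Taf8, Taf7 and Taf13 had the largest folds among the TFIID genes other than Taf4b and Taf7l. Taf8, which joins Taf2 and Taf10 to the core of the complex, was at 29.1 CPM in neurons and 39.0 in NPCs (1.34-fold lower, 1.22 to 1.48). Taf7, a partner of Taf1, was at 20.8 CPM in neurons and 27.0 in NPCs (1.30-fold lower, 1.16 to 1.46). Taf13, a histone-fold protein that pairs with Taf11, was at 17.7 CPM in neurons and 22.9 in NPCs (1.29-fold lower, 1.14 to 1.47). Its partner Taf11 was at 29.9 CPM in neurons and 33.7 in NPCs (1.13-fold lower, 1.02 to 1.25), so both members of the pair were lower. Taf6, a core histone-fold subunit, was at 60.8 CPM in neurons and 72.7 in NPCs (1.20-fold lower, 1.12 to 1.28). Exons of Ap4m1 on the opposite strand cover 38.2% of its exonic bases, and Ap4m1 was at 29.1 CPM in neurons and 35.3 in NPCs.

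The other core TAFs did not differ beyond counting error, although Taf3 and Taf12 were lower beyond it with total read scaling. Taf4a and Taf12, a histone-fold pair, were at 52.4 and 15.0 CPM in neurons and at 50.3 and 17.1 CPM in NPCs, and neither interval excluded equality. Taf5, which is present in the core in more than a single copy, was at 24.8 CPM in neurons and 23.9 in NPCs. Taf9, the histone-fold partner of Taf6, was at 100.9 CPM in neurons and 96.9 in NPCs, but it shares 56.5% of its annotated exonic bases with Ak6 on the same strand, so its level is uncertain. Taf3, whose finger domain reads methylated histone tails at active promoters, was at 28.3 CPM in neurons and 30.5 in NPCs (1.08-fold lower, 0.970 to 1.20). Taf10 was at 18.2 CPM in neurons and 17.1 in NPCs, with 35.8% of its exonic bases covered by exons of Ilk on the opposite strand.

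Taf4b and Taf7l, TAF variants known from germ cells, were near the limit of detection. Taf4b, a variant of Taf4a best known from the gonads, had 10 reads in neurons and 36 in NPCs, or 0.439 and 1.33 CPM. That is 3.04-fold lower in neurons (1.48 to 6.87), and on the scale with 1 CPM added its log2 ratio was -0.70. Taf7l, a variant of Taf7 known from testis and fat, had 8 reads in neurons and 1 in NPCs (9.52-fold higher, 1.27 to 420.3), an interval too wide to give a size. For comparison, 3 reads correspond to 0.132 CPM in neurons and 0.111 in NPCs. Taf9b, the variant of Taf9, was well above these levels, at 7.15 CPM in neurons and 6.86 in NPCs.

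Genes named as TAFs that act outside TFIID numbered 4. Taf5l and Taf6l, which replace Taf5 and Taf6 in the SAGA coactivator, were at 47.4 and 15.4 CPM in neurons and at 44.3 and 16.1 CPM in NPCs. Taf1c, of the promoter factor for RNA polymerase I, was at 29.9 CPM in neurons and 30.3 in NPCs. Intervals of these 3 spanned equality. Taf15, an RNA-binding protein, was at 112.3 CPM in neurons and 126.9 in NPCs (1.13-fold lower, 1.07 to 1.19). Taf1a, Taf1b and Taf1d were not found under these symbols among the genes used here.

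Outside the kinase module, 25 of 26 Mediator subunits lay within 1.25-fold, against 58.2% of all genes. By any amount 13 were higher and 13 lower in neurons, against 49.3% and 50.7% of all genes, a split of 8 and 18 with total read scaling. As deposited, the summed level was 1345 CPM in neurons and 1377 in NPCs. Beyond counting error 3 were higher and 4 lower, against 33.6% and 34.6% of all genes. With total read scaling 1 was higher (Med30) and 7 lower.

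In the head, which docks on Pol II, Med17, its central subunit, was at 49.9 CPM in neurons and 53.7 in NPCs (1.08-fold lower, 0.995 to 1.16). Med22 was at 96.5 CPM in neurons and 105.8 in NPCs (1.10-fold lower, 1.04 to 1.16), and Med11 at 12.3 and 9.94 (1.24-fold higher, 1.04 to 1.47). Med22 and Med11 form a pair in the head, and their transcripts differed in opposite directions, but with total read scaling Med11 was not beyond counting error (1.18-fold higher, 0.995 to 1.40). The remaining 4 head genes, Med6, Med8, Med18 and Med20, did not differ beyond counting error, with levels from 6.28 CPM (Med18) to 39.6 (Med8) in neurons and from 7.34 CPM (Med18) to 37.4 (Med8) in NPCs. The median log2 ratio of the 7 head genes was 0.046.

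In the middle, Med1, the subunit that nuclear receptors bind, was at 139.9 CPM in neurons and 160.0 in NPCs (1.14-fold lower, 1.09 to 1.20). Med14, the scaffold that runs through all modules, was at 134.2 CPM in neurons and 149.1 in NPCs (1.11-fold lower, 1.06 to 1.16). Med9 was at 21.9 CPM in neurons and 27.4 in NPCs (1.25-fold lower, 1.11 to 1.40). These 3 were the middle genes that differed beyond counting error, all in the same direction. Med4, Med7, Med10, Med19, Med21 and Med31 had log2 ratios between -0.075 and 0.11.

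The tail, which receives many activators, differed by 1.06-fold at most, and with total read scaling Med16 and Med23 were lower beyond counting error. Med15, a target of the sterol-regulated factors, was at 69.6 CPM in neurons and 68.4 in NPCs. Med23, through which Ets-type and E1A activators work, was at 116.0 CPM in neurons and 117.4 in NPCs. Med25, the target of the viral activator VP16, was at 86.6 CPM in neurons and 86.0 in NPCs. Med16 was at 53.4 CPM in neurons and 55.9 in NPCs. All 4 intervals spanned equality. Med24, at 157.5 CPM in neurons and 148.4 in NPCs, was 1.06-fold higher in neurons (1.01 to 1.11), and its log2 ratio of 0.086 became 0.019 with total reads used for scaling.

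Med26 to Med30 are kept apart because accounts differ on the module of several of them, and 4 of the 5 were higher in neurons by some amount, against 49.3% of all genes. Med30 was at 14.0 CPM in neurons and 10.9 in NPCs (1.28-fold higher, 1.09 to 1.51), the single member of this group beyond counting error. Med29 was at 18.3 CPM in neurons and 16.1 in NPCs (1.13-fold higher, 0.987 to 1.30), and Med28 at 51.1 and 47.3 (1.08-fold higher, 0.997 to 1.17). Med26, which recruits elongation factors to Mediator, was at 17.3 CPM in neurons and 16.4 in NPCs (1.05-fold higher, 0.917 to 1.21). Med27 was at 35.1 CPM in neurons and 35.7 in NPCs.

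The kinase module held the largest differences within Mediator, and all 7 of its genes differed beyond counting error, 2 higher and 5 lower in neurons, against 33.6% and 34.6% of all genes. These calls were the same under the 3 other scalings. Among the 9950 genes at 10 CPM or more, as all 7 are, the shares were 36.0% and 35.2%. Such calls depend on read number, so they alone do not set the module apart. Med13l was at 256.1 CPM in neurons and 195.5 in NPCs (1.31-fold higher, 1.26 to 1.36), and Cdk19 at 193.3 and 162.3 (1.19-fold higher, 1.14 to 1.24). Med12l was at 20.0 CPM in neurons and 32.5 in NPCs (1.62-fold lower, 1.45 to 1.82). Its exons share 15.6% of their bases with Igsf10 on the opposite strand, which was at 18.0 CPM in neurons and 26.4 in NPCs, so reads of these genes may be mixed. Med12, which activates the kinase, was at 150.1 CPM in neurons and 175.4 in NPCs (1.17-fold lower, 1.12 to 1.22). Med13, which tethers the module to the core, was at 348.0 CPM in neurons and 385.2 in NPCs (1.11-fold lower, 1.07 to 1.14). Cdk8, the kinase, was at 55.4 CPM in neurons and 60.6 in NPCs (1.09-fold lower, 1.01 to 1.18), and its cyclin gene Ccnc at 32.2 and 37.1 (1.15-fold lower, 1.05 to 1.27). Summed over the module the level was 1055 CPM in neurons and 1049 in NPCs, close in total.

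Paralogues of the module exclude each other from a single complex, so their balance was examined as the ratio of their reads within each library, which does not depend on scaling between libraries. Med13l reads per Med13 read were 0.736 in neurons and 0.507 in NPCs, 1.45 times higher in neurons (1.38 to 1.52). Cdk19 reads per Cdk8 read were 3.49 in neurons and 2.68 in NPCs (1.30 times higher, 1.19 to 1.42). Med12l reads per Med12 read were 0.133 in neurons and 0.185 in NPCs (1.39 times lower, 1.23 to 1.57). The balance of reads therefore moved towards the L form for Med13 and away from it for Med12. Changed exon use or annotation at one of the genes was not tested. Nor was the part of Igsf10, whose exons overlap those of Med12l, in the Med12l reads.

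Per kilobase of transcript, Med13l and Med13 were level in neurons (32.9 and 33.0 CPM per kilobase of transcript), while in NPCs Med13l was at 25.1 and Med13 at 36.5. Cdk19 exceeded Cdk8 1.78-fold in neurons and 1.37-fold in NPCs, or 3.23-fold and 2.48-fold when coding length was used. Med12 exceeded Med12l 11.3-fold in neurons and 8.13-fold in NPCs, or 7.50-fold and 5.40-fold by coding length. By coding length Med13 exceeded Med13l 1.39-fold in neurons and 2.01-fold in NPCs. The order of these levels thus held for Cdk19 and Med12 on both lengths, with sizes that depend on the length chosen.

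**Figure D3:**
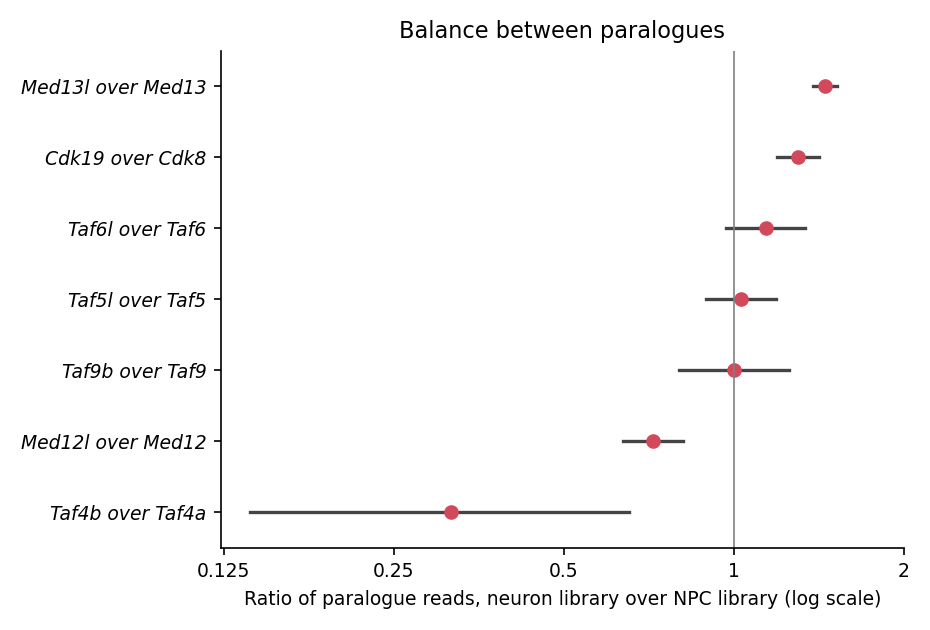
Ratio of paralogue reads in the neuron library over the same ratio in the NPC library (horizontal axis, log scale) for 7 of 8 pairs; bars are exact 95% intervals for counting error. Med13l and Cdk19 lie to the right of equality and Med12l and Taf4b to the left, and the pair of Taf7l and Taf7, with 1 Taf7l read in NPCs, is not drawn.

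The intervals of the Taf9b, Taf5l and Taf6l pairs spanned equality. Taf9b reads per Taf9 read were 0.071 in both libraries (ratio of ratios 1.001, 0.800 to 1.25). Taf5l per Taf5 was 1.91 in neurons and 1.86 in NPCs (1.03, 0.892 to 1.19), and Taf6l per Taf6 0.253 and 0.222 (1.14, 0.971 to 1.34). Differences of up to these bounds are therefore not excluded by the counts. Taf9b had 163 reads in neurons and 185 in NPCs. Exons of Ak6 overlap 56.5% of the exonic bases of Taf9, and those of Ap4m1 38.2% of Taf6. The ratios of these pairs are therefore uncertain. Taf4b per Taf4a was 3.17 times lower in neurons (1.53 to 7.18), on 10 and 36 Taf4b reads.

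The remaining general factors of the rule differed by 1.07-fold at most. Gtf2a1, which encodes the large subunits of TFIIA, was at 85.6 CPM in neurons and 80.2 in NPCs (1.07-fold higher, 1.004 to 1.14), a call lost with total read and with upper quartile scaling. Gtf2b, TFIIB, was at 42.3 CPM in neurons and 39.9 in NPCs, Gtf2e1, the large subunit of TFIIE, at 56.6 and 56.2, and Gtf2h1, a core subunit of TFIIH, at 45.2 and 45.0. The intervals of these 3 spanned equality.

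Longer transcripts among the members tended to be lower in neurons. Spearman's rho between annotated transcript length and the log2 ratio was -0.30 over 69 members. It was -0.046 over 11488 genes at 1 CPM or more that have a length and -0.065 over the 9060 of these at 10 CPM or more. These are values across genes that share both libraries. The 18 members of 4000 bases or longer had a median log2 ratio of -0.12, with 6 higher and 12 lower in neurons (66.7% lower, against 53.1% of all genes of that length at 10 CPM or more). With total read scaling 5 were higher and 13 lower, Taf4a having turned. The 10 members under 1000 bases had a median of 0.023. Among all genes at 10 CPM or more the medians were -0.023 for 3197 genes of 4000 bases or longer and 0.089 for 445 genes under 1000 bases, so the order was the same. The 12 lower ones include Polr2a, Med1, Med12, Med12l, Med13, Med14, Taf1, Taf2 and Taf4b, and the 6 higher ones were Med13l, Cdk19, Med28, Gtf2a1, Taf10 and Taf4a. Taf4b, at 0.439 CPM in neurons and 1.33 in NPCs, does not pass the 10 CPM filter of the comparison genes. RNA integrity is not given in the sources used here, and its part in this was not tested.

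Other genes of the machinery were read from 4 further lists, whose counts stand against 10.6% of all genes at least 1.5-fold higher and 13.1% at least 1.5-fold lower in neurons. With lists of 12 to 20 genes such shares amount to few genes, so counts of 0 and 1 do not set the lists apart. Of 17 measured general factors outside the rule, 0 were at least 1.5-fold higher and 1 at least 1.5-fold lower, and the list's median log2 value was -0.083. The exception was Mnat1, the assembly factor of the Cdk7 kinase in TFIIH, at 10.9 CPM in neurons and 18.8 in NPCs (1.72-fold lower, 1.47 to 2.01). Ercc2, a TFIIH helicase, was at 78.6 CPM in neurons and 66.1 in NPCs (1.19-fold higher, 1.11 to 1.27). Of 20 genes of polymerases I and III and their factors, 0 were 1.5-fold higher and 1 lower, with a median of 0.018. This was Polr3g, a polymerase III subunit known from stem cells, at 2.20 CPM in neurons and 3.97 in NPCs (1.81-fold lower, 1.28 to 2.58). Polr3c was at 30.3 CPM in neurons and 40.7 in NPCs (1.34-fold lower, 1.22 to 1.48). Polr1d, a subunit of polymerases I and III, was at 74.2 CPM in neurons and 56.1 in NPCs (1.32-fold higher).

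Of 12 SAGA genes, which share several TAFs with TFIID, 0 reached 1.5-fold in either direction, and the median was -0.088. Usp22, the deubiquitinase of the complex, was at 895.5 CPM in neurons and 646.1 in NPCs (1.39-fold higher, 1.36 to 1.41), and Atxn7, which anchors it, at 37.5 and 51.3 (1.37-fold lower). Of 17 genes for Pol II assembly and for phosphatases of its C-terminal tail, 0 were at least 1.5-fold higher and 1 lower, with a median of -0.10. Ctdsp1, a small phosphatase of the tail that represses neuronal genes in non-neuronal cells, was at 21.1 CPM in neurons and 51.8 in NPCs (2.46-fold lower, 2.21 to 2.73). Its relative Ctdsp2 was at 213.0 CPM in neurons and 292.2 in NPCs (1.37-fold lower, 1.32 to 1.42).

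**Figure D4:**
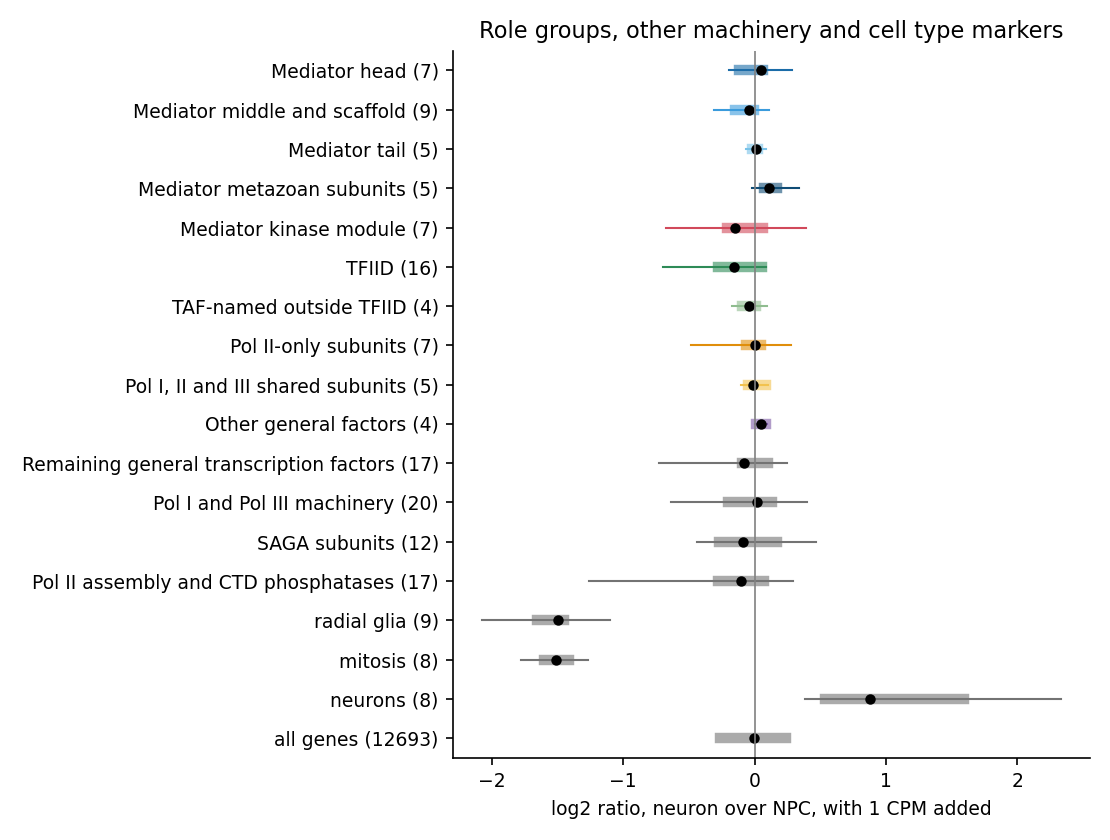
log2 ratio of neuron to NPC with 1 CPM added, for the 10 role groups, the 4 further lists, markers of radial glia, mitosis and neurons, and all genes at 1 CPM or more (number of genes in brackets). Black points are medians, thick bars the interquartile range and thin lines the whole range, which is not drawn for all genes; the role groups lie near 0, and the marker lists lie away from it.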

How the data were processed

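The labels' protocols describe trituration with EDTA and DNase I, cell sorting by fluorescence, TRIzol extraction and a TruSeq library kit. Build mm9 and the tools TopHat 1.2.0, CASAVA 1.9, edgeR (no version) and SAMtools 0.1.18 come from the submitters' processing notes, which assign them no step. The roles of aligner and counter, the annotation, the strand setting and the handling of multiply aligned reads were not given in the sources used here, so overlapping genes cannot be told apart.

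Each deposited table holds 1 signal value per gene, which is a read count rescaled by the authors, as its values show. Values were whole multiples of a fixed step in neurons (99.97% within 0.05 reads) and in NPCs (100%), which gave the reads. Neuron values below 0.01 were taken as 0. The design assumed counts or CPM; a count test on the recovered reads was not possible, since 1 library per group leaves no estimate of spread. The deposited values were divided by the mean of both sums and multiplied by 1000000 to give CPM, which keeps the authors' scaling. 1 CPM is 22.8 reads in neurons and 27.0 in NPCs.

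Folds are ratios of CPM with exact Clopper-Pearson 95% intervals of the read share (scipy 1.17.1). Paralogue intervals are conditional and exact. Without molecular identifiers, reads are not independent molecules, and intervals cover counting error only. Alternatives used TMM and upper quartile factors (edgeR 4.0.16, R 4.3.3), other added values and other filters. Lengths are those of the GENCODE M21 (GRCm38) transcript with the longest coding sequence, found for all 70 members and 90.5% of genes at 1 CPM or more, and no coordinates were carried between builds. Taf4a and Ccdc101 were matched through newer symbols, and Map2 and Supt20 through older ones. The interval calculation was tested on simulated data.

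Members and lists were chosen with earlier results of these data known. The rule for names took every member, up to 4 genes per further list by absolute log2 ratio, Nes and Dcx. Ap4m1, Tbcb, Pdcd2, Ilk, Ak6 and Igsf10 were named after their values were seen, for overlapping members. Hba-a1 and Hba-a2 were also named after their values were seen, for their equal reads.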

Additional observations from a re-analysis of the deposited data

How the results depend on the processing

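The 345 single-gene log2 ratios recomputed with 0.1 or 5 CPM added or with total read, TMM or upper quartile scaling stayed within their counting error in 336 cases, and the 9 that moved farther all did so under total read scaling, which shifts the median of all genes to -0.069. The sign turned in 19 of the 345, all for genes with an absolute log2 ratio of 0.061 or less, and 14 of these were under total reads. Med12l and Taf4b, at least 1.5-fold lower in neurons, became 0 genes with 5 CPM added and 1 gene with a filter of 10 CPM, which Taf4b does not pass. With 0.1 CPM added 1 gene, Taf4b, was at least 2-fold lower. Under total read scaling the kinase module median was -0.21 in place of -0.15, the members higher in neurons beyond counting error numbered 3 in place of 7, and those of Mediator 3 in place of 5. The counting error and coding length alternatives were chosen after seeing the data. Adding 0.5 reads kept every paralogue ratio within its interval. No paired analysis was possible because each group has 1 library. Depth limits Taf4b and Taf7l most.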
